A study of Mus musculus with 6 samples.

Results

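The genes described here are 49 enzymes of the urea cycle and of amino acid breakdown, chosen by symbol from the count table, which holds 15565 genes. The list was drawn up with earlier results of these data known, but no measured value decides which genes are in it. All 49 passed the filter on low counts and were among the 13288 genes tested. TERT(High) and TERT(Low) hepatocytes were sorted from the livers of the same 3 mice, which gave 3 libraries of each population. All mice were C57BL/6, were 2 months old and had the genotype Tert(CreERT2/+); R26(LSL-Tomato/+), so cells of both populations shared both modified alleles: CreERT2, a Cre recombinase switched on by tamoxifen, sits at 1 Tert allele, and 1 R26 allele holds Tomato behind a stop cassette that Cre removes. Telomerase, which extends chromosome ends, has the Tert protein as its catalytic part. The labels give no drug treatment and no gate for the sort, and no group of other genotype was analysed here. The comparison asks how the RNA of these enzymes differs between these populations of one liver.

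The liver removes the nitrogen of amino acids as urea. Transaminases and dehydrogenases release that nitrogen as glutamate, ammonia and aspartate, and the urea cycle joins ammonia and aspartate nitrogen into urea, with ornithine carried round the cycle. In the liver lobule these tasks are divided: urea synthesis and the breakdown of serine and histidine are strongest in hepatocytes near the portal vein, and glutamine synthesis and ornithine transamination in hepatocytes near the central vein. Glucagon and glucocorticoids raise many of these enzymes in fasting and on a high-protein diet.

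Library totals were 53585174 to 64065266 counts in TERT(High) cells and 55355819 to 76164917 counts in TERT(Low) cells. Levels are counts per 1e6 library counts scaled by TMM (CPM), and differences are log2 fold changes of TERT(High) over TERT(Low) with their standard error (SE). Calls are at an adjusted p under 0.05 in edgeR's quasi-likelihood test over all tested genes. Tert itself was at 0.515 to 0.620 CPM in TERT(High) cells and at 0.228 to 0.401 CPM in TERT(Low) cells (log2 fold change 0.87, edgeR adjusted p = 0.249). All 10 hepatocyte markers were present, with a summed level of 128743 to 145286 CPM in TERT(High) cells, against 113973 to 139571 CPM in TERT(Low) cells. Of the 10, 1 was called, Apob, higher in TERT(High) cells (log2 fold change 2.78, edgeR adjusted p = 0.0241). Alb, Apoa1 and Ttr were not called, with log2 fold changes of 0.41, -0.54 and -0.69 and groups that did not overlap. The sums for other cells were low beside those of the hepatocyte markers. The 10 macrophage markers summed to 19.4 to 109 CPM in TERT(High) cells, against 17.0 to 52.0 CPM in TERT(Low) cells, the 8 neutrophil markers to 5.01 to 14.4 CPM in TERT(High) cells, against 4.78 to 11.4 CPM in TERT(Low) cells, and 3 cholangiocyte markers to 2.05 to 11.7 CPM in TERT(High) cells, against 2.13 to 3.26 CPM in TERT(Low) cells. The 6 lymphocyte markers summed to 0.231 to 1.80 CPM in TERT(High) cells, against 0.0954 to 0.607 CPM in TERT(Low) cells, and Cd79a and Cd79b were at 0 in 3 or more libraries. The TERT(High) library of mouse 1 stood apart, with 142 CPM of 8 stellate cell markers (4.24 to 10.02 CPM in the other libraries) and 206 CPM of 5 erythroid markers (17.5 to 61.0 CPM in the others). The sum of the 8 endothelial markers did not overlap between the groups, at 32.2 to 56.3 CPM in TERT(High) cells, against 23.3 to 27.8 CPM in TERT(Low) cells. Of these 8, 2 were called, Lyve1 and Kdr, both higher. Of all tested genes, 8.14% were called, and 17.5% had every TERT(High) library above every TERT(Low) library.

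In the fit by group, which leaves out the pairing by mouse, 1 difference passed the test across the 49 enzymes. Dbt, the transacylase core of the branched-chain ketoacid dehydrogenase complex, was higher in TERT(High) cells, and no enzyme was called lower. This is 1 of 49 members (2.04%), where 8.14% of all tested genes were called (588 with higher and 493 with lower levels). With the mouse as a block, which keeps the pairing, 1 member was called higher and 3 lower (8.16%, beside 9.72% of all tested genes). In the fit by group, unadjusted p was under 0.05 for 9 members, of which 8 were lower and 1 was higher (18.4%, against 28.7% of all tested genes). The median log2 fold change was -0.16 over the members and -0.01 over all tested genes. Single libraries moved the members' median: it was -0.021 without TERT(High) and -0.35 without TERT(Low) of mouse 1, and -0.43 without TERT(High) and 0.017 without TERT(Low) of mouse 2. There were 13 members above 0 and 36 below 0, and for 38 of the 49 the log2 fold change was smaller than 0.5 in size. Together the 49 genes took 2.55 ± 0.655% of the counts in TERT(High) libraries and 2.503 ± 0.667% in TERT(Low) libraries (SD, n = 3 each). In sorted bulk samples, fewer cells of a type and less RNA per cell cannot be told apart.

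For most members the mice differed more than the populations did. Members took 1.82% of counts in TERT(High) and 1.79% in TERT(Low) cells of mouse 1, 3.08% and 3.11% in the TERT(High) and TERT(Low) cells of mouse 2, and 2.74% and 2.61% in those of mouse 3. The 2 libraries of mouse 1 were thus the lowest and lay close to each other. For 28 of the 49 members (57.1%) both libraries of mouse 1 were the lowest of the 6, a count chosen after the values were seen, against 6.84% of all tested genes, and for 0 members were both the highest. In these 28 the mean level in mouse 1 was 0.270 to 0.860 of that in the other 2 mice, with a median of 0.494. All 6 members of methionine metabolism and 4 of the 6 urea cycle enzymes were among them. The members are abundant genes, with a median of 215 CPM against 6.92 CPM for all tested genes. The range between mice, each averaged over its 2 populations, had a median of 0.70 on the log2 scale for the members, beside a median difference of 0.35 between the populations within a mouse. Over the 12748 genes with counts in every library these medians were 0.48 and 0.51. The range between mice exceeded the difference within them for 73.5% of members and for 48.8% of those genes.

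**Figure D1:**
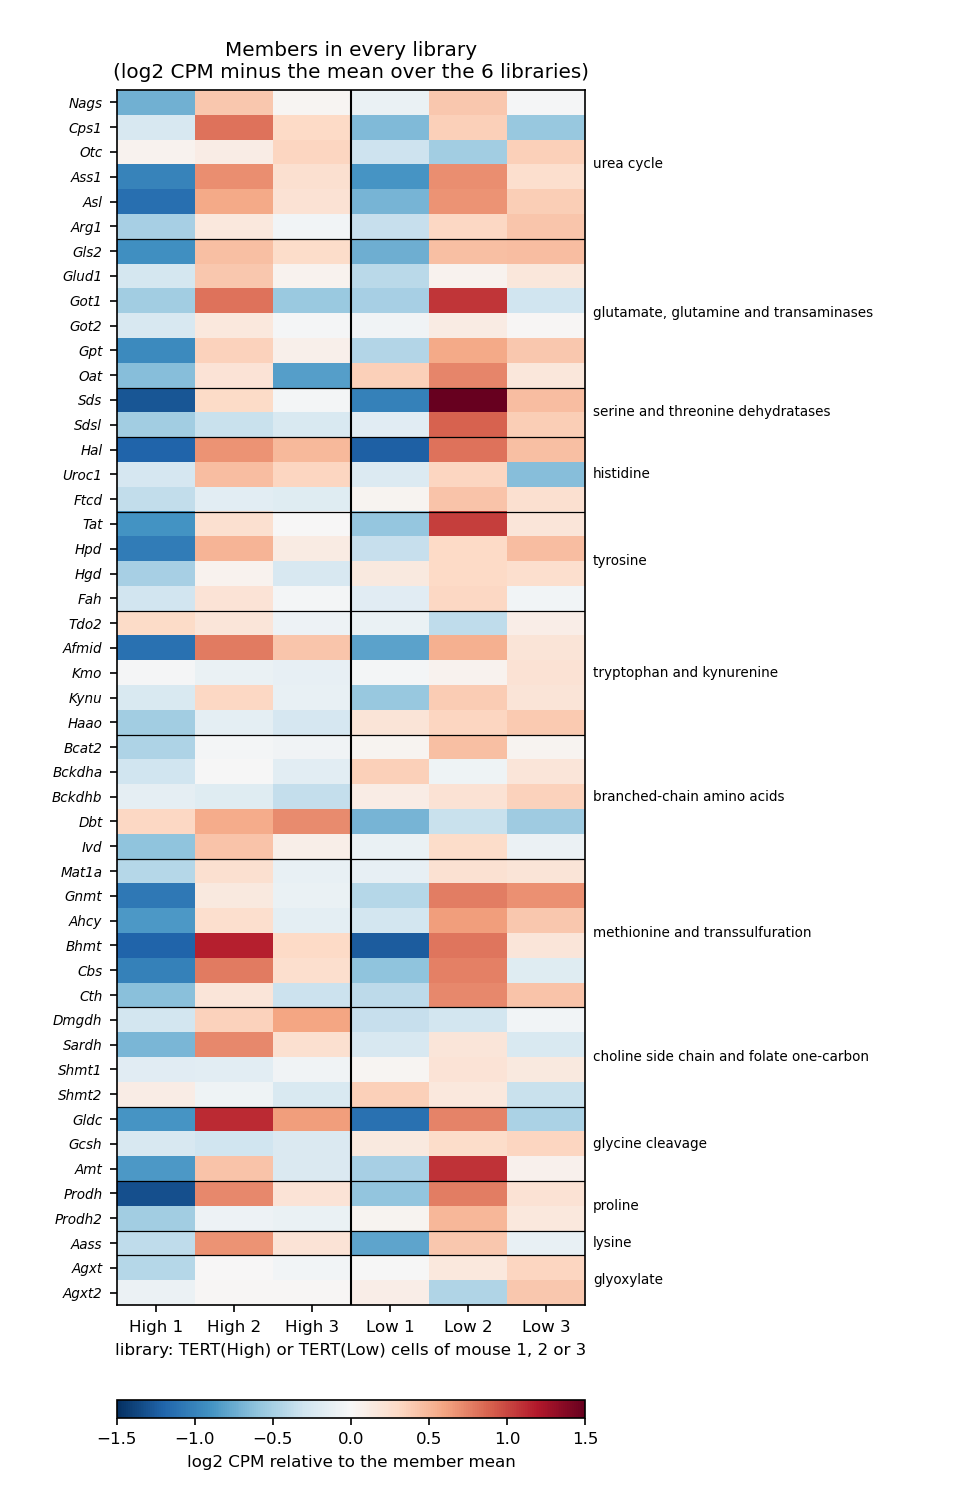
Level of each of the 49 enzymes in each library, as colour, its log2 CPM minus its mean over the 6 libraries, with TERT(High) libraries on the left and TERT(Low) libraries on the right, and enzymes ordered by role. For 28 of the 49 enzymes both columns of mouse 1 are the lowest of the 6.

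Some genes outside the list moved with mouse 1 as well. Pck1, the key enzyme of glucose synthesis from amino acid carbon, was at 297, 1333 and 551 CPM in TERT(High) cells of mice 1, 2 and 3, beside 226, 755 and 591 CPM in TERT(Low) cells. Glul, glutamine synthetase, had its highest level in mouse 1, with 169, 68.1 and 60.7 CPM in TERT(High) cells and 221, 132 and 80.4 CPM in TERT(Low) cells. Mouse 1 thus had the lowest Pck1 and the highest Glul of each population. Among the pericentral markers, Glul alone had both libraries of mouse 1 the highest. The 11 periportal markers summed to 3728, 8872 and 6775 CPM in TERT(High) cells, against 3776, 8829 and 6982 CPM in TERT(Low) cells. Of these, 6 are members and Pck1 is another, so the sum largely repeats the values above. Of the rest, Cdh1 was lowest in both libraries of mouse 1, at 0.508 of the level in mice 2 and 3. Cyp2f2, Hsd17b13 and Ctsc were not, with mouse 1 at 1.18, 0.989 and 0.856 of that level. The part of these differences in the results below was not tested.

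No urea cycle enzyme passed the test, and their groups overlapped for all 6. Cps1, carbamoyl phosphate synthetase of the mitochondria, which fixes free ammonia in the first committed step, had 2088, 4367 and 3046 CPM in TERT(High) cells of mice 1, 2 and 3, against 1564, 3173 and 1665 CPM in TERT(Low) cells. It was higher in the TERT(High) cells of every mouse, by 0.42, 0.46 and 0.87 on the log2 scale, while the groups overlapped. In edgeR the log2 fold change was 0.57 with an SE of 0.38 and an adjusted p of 0.380, and with the mouse as a block it was 0.58 (SE 0.15, adjusted p = 0.0672). Ass1, argininosuccinate synthase, which brings in the second nitrogen as aspartate, had 1414, 4607 and 3359 CPM in TERT(High) cells, against 1542, 4587 and 3378 CPM in TERT(Low) cells. Its populations differed within a mouse by -0.12, 0.01 and -0.01 on the log2 scale, while its level in mouse 1 was 0.371 of that in mice 2 and 3. The fold change of Ass1 was -0.02 on the log2 scale with SE 0.53, and -0.04 with SE 0.12 under the block.

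The other 4 enzymes of the cycle also overlapped between the groups. Nags makes N-acetylglutamate, the activator that carbamoyl phosphate synthetase requires, and had 36.1, 79.1 and 60.8 CPM in TERT(High) cells, against 55.5, 78.8 and 58.9 CPM in TERT(Low) cells. Otc, which joins carbamoyl phosphate to ornithine, had 221, 229 and 265 CPM in TERT(High) cells, against 171, 148 and 273 CPM in TERT(Low) cells. The groups overlapped in both genes, and the TERT(Low) library of mouse 3 was the highest for Otc. Asl, the lyase that releases arginine, had 259, 845 and 663 CPM in TERT(High) cells, against 349.9, 910.0 and 736 CPM in TERT(Low) cells. Arg1, the arginase that splits off urea, had 752, 1186 and 1033 CPM in TERT(High) cells, against 837, 1323 and 1417 CPM in TERT(Low) cells. Both were lower in the TERT(High) cells of every mouse, with overlapping groups and log2 fold changes of -0.18 (SE 0.50) for Asl and -0.27 (SE 0.26) for Arg1. With the mouse as a block these were -0.23 (SE 0.13, edgeR adjusted p = 0.277) for Asl and -0.26 (SE 0.13, adjusted p = 0.240) for Arg1. In edgeR's fit by group, adjusted p ran from 0.380 to 0.986 over the 6 enzymes. Summed over the cycle, the level was 4771, 11313 and 8427 CPM in TERT(High) cells and 4519, 10219 and 7528 CPM in TERT(Low) cells.

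**Figure D2:**
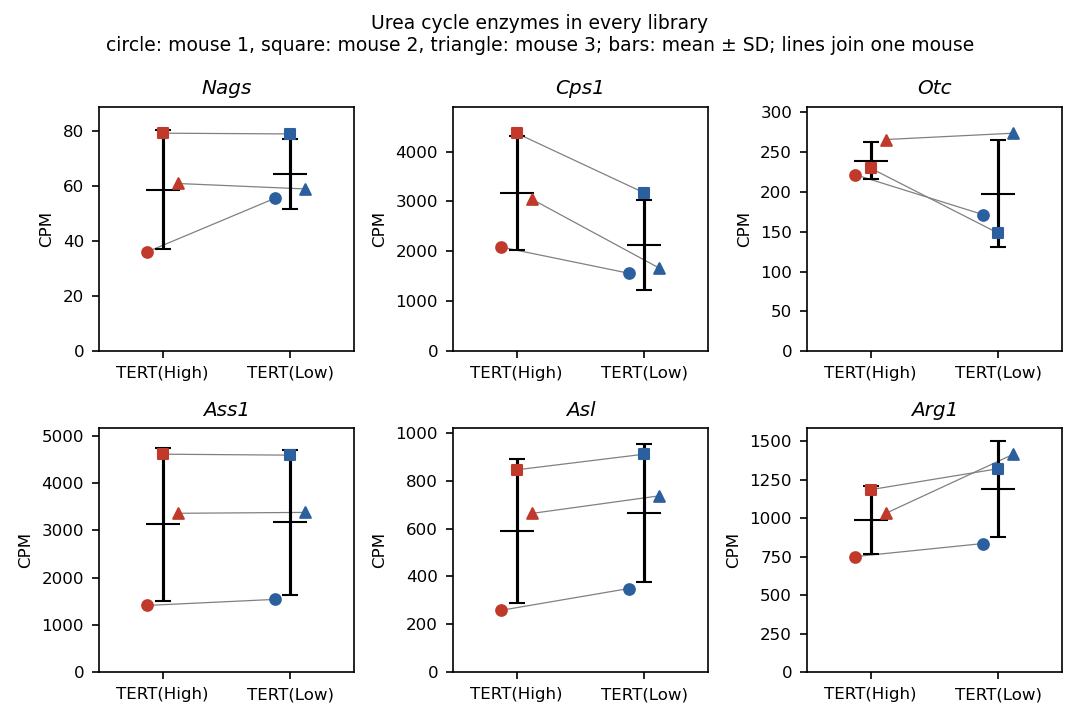
Level in CPM of the 6 urea cycle enzymes in TERT(High) and TERT(Low) libraries, 1 panel per gene, with the mean ± SD of 3 libraries and a line joining the libraries of 1 mouse. Ass1 lines run almost level, between 1414 and 1542 CPM for mouse 1 and between 4607 and 4587 CPM for mouse 2, and Cps1 is lower in TERT(Low) cells of every mouse.

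Per length, the enzymes of this list spanned a wide range. Over all libraries Ass1 had 1856 CPM per kb of transcript, Gnmt 1280.0, Ahcy 895, Mat1a 839, Hpd 765 and Arg1 739. At the low end were Amt with 9.82, Dbt with 8.98, Sdsl with 6.13 and Bcat2 with 4.97 CPM per kb. Bcat2, the mitochondrial aminotransferase for leucine, isoleucine and valine, is known for its low level in hepatocytes, and Dbt was the next but one above it.

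Among the enzymes that handle glutamate and its nitrogen, 0 of 6 passed the test. Glud1, glutamate dehydrogenase and the most abundant of them in CPM, had 575, 911 and 713 CPM in TERT(High) cells, against 522, 714 and 773 CPM in TERT(Low) cells, with overlapping groups (log2 fold change 0.13, SE 0.23). Oat, ornithine aminotransferase, which drains ornithine to glutamate and is a marker of hepatocytes at the central vein, had 72.0, 129 and 63.1 CPM in TERT(High) cells of mice 1, 2 and 3, against 144, 187 and 126 CPM in TERT(Low) cells. It was lower in the TERT(High) cells of every mouse, with log2 ratios of -1.004, -0.54 and -1.003, but the TERT(High) library of mouse 2 lay just above the TERT(Low) library of mouse 3. The means were 88.0 ± 35.7 CPM in TERT(High) cells, against 153 ± 31.2 CPM in TERT(Low) cells (SD, n = 3 each). In edgeR the log2 fold change was -0.80 with an SE of 0.31 and an adjusted p of 0.146. Blocking on the mouse gave -0.85 (SE 0.15, adjusted p = 0.0421), past the threshold. The 8 pericentral markers, Oat among them, summed to 3390 to 4668 CPM in TERT(High) cells, against 4726 to 6089 CPM in TERT(Low) cells, which do not overlap. Most of this sum is Cyp2e1, whose own groups overlapped. It had 3448, 3868.5 and 2815 CPM in TERT(High) cells, against 5000, 3741 and 4152 CPM in TERT(Low) cells. Of the 8 markers 0 were called, Axin2 had a log2 fold change of 0.55 and Lgr5 of -0.04, and those of the others were lower. The part of the pericentral markers in the difference of Oat was not tested. Gls2, the liver glutaminase, and the transaminases Got1, Got2 and Gpt had log2 fold changes from -0.32 (Gpt, alanine aminotransferase) to -0.05 (Got2).

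Sds and Sdsl, the serine dehydratase and its relative, stood at the low end of all members without passing the test. Sds turns serine into pyruvate and ammonia, and had 46.0, 137 and 111 CPM in TERT(High) cells of mice 1, 2 and 3, against 55.5, 336 and 155 CPM in TERT(Low) cells. The TERT(Low) library of mouse 2 was by far the highest, the groups overlapped, and in edgeR the log2 fold change was -0.89 with an SE of 0.67 and an adjusted p of 0.443. Sdsl had 5.94, 6.75 and 7.26 CPM in TERT(High) cells, against 7.60, 15.7 and 11.1 CPM in TERT(Low) cells. Here every TERT(High) library lay below every TERT(Low) library (log2 fold change -0.78, SE 0.28, edgeR adjusted p = 0.121). Such separation was common: 9 of the 49 members had all TERT(High) libraries below all TERT(Low) libraries, 18.4% beside 15.9% of all tested genes, and 1 member had them above, 2.04% beside 17.5% of all tested genes. The 9 were Sdsl, Ftcd, Hgd, Haao, Bcat2, Bckdhb, Shmt1, Gcsh and Prodh2.

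Histidine breakdown, which runs from Hal through Uroc1 to Ftcd and yields glutamate and a folate-bound carbon, had 0 of 3 enzymes past the test. Uroc1, urocanase, had 371, 609 and 553 CPM in TERT(High) cells, against 385, 555 and 285 CPM in TERT(Low) cells. The populations of mouse 3 differed by 0.96 on the log2 scale, while those of mouse 1 differed by -0.05, and the groups overlapped. Hal, histidine ammonia-lyase, differed within a mouse by 0.02, -0.14 and 0.04 on the log2 scale, and mouse 1 was at 0.283 of the level in the other mice. Ftcd, formimidoyltransferase cyclodeaminase, had log2 fold change -0.48 (SE 0.16, edgeR adjusted p = 0.0997).

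Of the 4 tyrosine enzymes, which lead from Tat through Hpd and Hgd to Fah, all had log2 fold changes below 0, from -0.50 for Tat to -0.07 for Fah, and 0 passed the test. Hpd, 4-hydroxyphenylpyruvate dioxygenase, had 489, 1432 and 1097 CPM in TERT(High) cells, against 795, 1237 and 1392 CPM in TERT(Low) cells. Mouse 2 went the other way from mice 1 and 3, and the groups overlapped (log2 fold change -0.18, SE 0.41).

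In the tryptophan and kynurenine branch 0 of 5 enzymes passed the test. Tdo2, tryptophan dioxygenase, which opens the indole ring, had 708, 655 and 547 CPM in TERT(High) cells, against 538, 443 and 617 CPM in TERT(Low) cells, with overlapping groups (log2 fold change 0.26, SE 0.18). Further down, Haao, which opens the ring of 3-hydroxyanthranilate on the way to quinolinate and NAD, had 239, 309.7 and 289 CPM in TERT(High) cells, against 393, 429 and 452 CPM in TERT(Low) cells. All TERT(High) libraries lay below all TERT(Low) libraries, with means of 279 ± 36.3 CPM in TERT(High) cells, against 425 ± 29.7 CPM in TERT(Low) cells (SD, n = 3 each). In edgeR the log2 fold change was -0.60 with an SE of 0.16 and an adjusted p of 0.0608, and with the mouse as a block it was -0.61 (SE 0.12, adjusted p = 0.0468), past the threshold. Kmo, Kynu and Afmid, the hydroxylase, kynureninase and formamidase between these steps, had log2 fold changes of -0.16, -0.05 and 0.15.

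The branched-chain group held the member that passed. The branched-chain ketoacid dehydrogenase complex has a decarboxylase made of Bckdha and Bckdhb, a transacylase core made of Dbt, and the lipoamide dehydrogenase Dld, which it shares with other complexes. Dbt (Entrez gene 13171, chromosome 3, 116513070 to 116549981 on GRCm38) had 34.2, 40.5 and 45.1 CPM in TERT(High) cells of mice 1, 2 and 3, against 17.0, 21.8 and 19.1 CPM in TERT(Low) cells. Every TERT(High) library lay above every TERT(Low) library, and the means were 39.9 ± 5.47 CPM in TERT(High) cells, against 19.3 ± 2.40 CPM in TERT(Low) cells (SD, n = 3 each). Its log2 fold change was 1.05 with an SE of 0.17 (edgeR adjusted p = 0.0277), with 1.01, 0.89 and 1.24 within mice 1, 2 and 3. With the mouse as a block it was 1.05 (adjusted p = 0.0407), and after removal of the trend with transcript length and GC content it was 0.74 (adjusted p = 0.395). Of the 6 fits that leave out 1 library, the one without the TERT(High) library of mouse 1 still called Dbt (adjusted p = 0.0224). Adjusted p was 0.0879 and 0.148 without TERT(High) of mouse 2 or of mouse 3, beside 0.0952, 0.0979 and 0.102 without the TERT(Low) libraries of mice 1, 2 and 3. Without mouse 1, 2 or 3 as a whole it was 0.0750, 0.179 and 0.309, while the log2 fold change stayed between 0.94 and 1.15 in all of these fits. The fit with the length and GC trend removed called 0 of all genes. So did each fit without a library or mouse, other than that without TERT(High) of mouse 1.

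The decarboxylase genes had log2 fold changes below 0. Bckdha had 142, 174 and 156 CPM in TERT(High) cells, against 223, 166 and 198 CPM in TERT(Low) cells, with overlapping groups (log2 fold change -0.31, SE 0.17, edgeR adjusted p = 0.267). Bckdhb had 53.6, 51.7 and 45.9 CPM in TERT(High) cells, against 63.5, 68.0 and 74.9 CPM in TERT(Low) cells. Every TERT(High) library of Bckdhb lay below every TERT(Low) library (log2 fold change -0.45, SE 0.14, edgeR adjusted p = 0.0907). Within a library, the counts of Dbt were 0.638, 0.784 and 0.982 of those of Bckdhb in TERT(High) cells of mice 1, 2 and 3, beside 0.268, 0.321 and 0.255 in TERT(Low) cells. This ratio does not depend on the scaling of libraries, but the transcripts differ in length, 3301 nt for Dbt and 1477 nt for Bckdhb. Around the complex, Dld had 64.4, 41.9 and 64.8 CPM in TERT(High) cells, against 30.3, 29.6 and 47.5 CPM in TERT(Low) cells (edgeR adjusted p = 0.152). Ppm1k, the phosphatase that switches the complex on, had a log2 fold change of 0.92 (adjusted p = 0.0762) and passed with the mouse as a block (0.88, adjusted p = 0.0468). Bckdk, the kinase that switches it off, had a log2 fold change of -0.44 (adjusted p = 0.294). After removal of the length and GC trend, log2 fold changes were 0.31 for Ppm1k, 0.42 for Dld and -0.39 for Bckdk. Those of Bckdha and Bckdhb were then -0.04 and -0.12. For these 5 genes edgeR's adjusted p then ran from 0.448 to 0.952. Bcat2 and Ivd, isovaleryl-CoA dehydrogenase of leucine breakdown, had log2 fold changes of -0.36 and -0.01. The endothelial markers, whose sums also lay higher in every TERT(High) library, reached 56.3 CPM over 8 genes, and their part in the difference of Dbt was not tested.

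**Figure D3:**
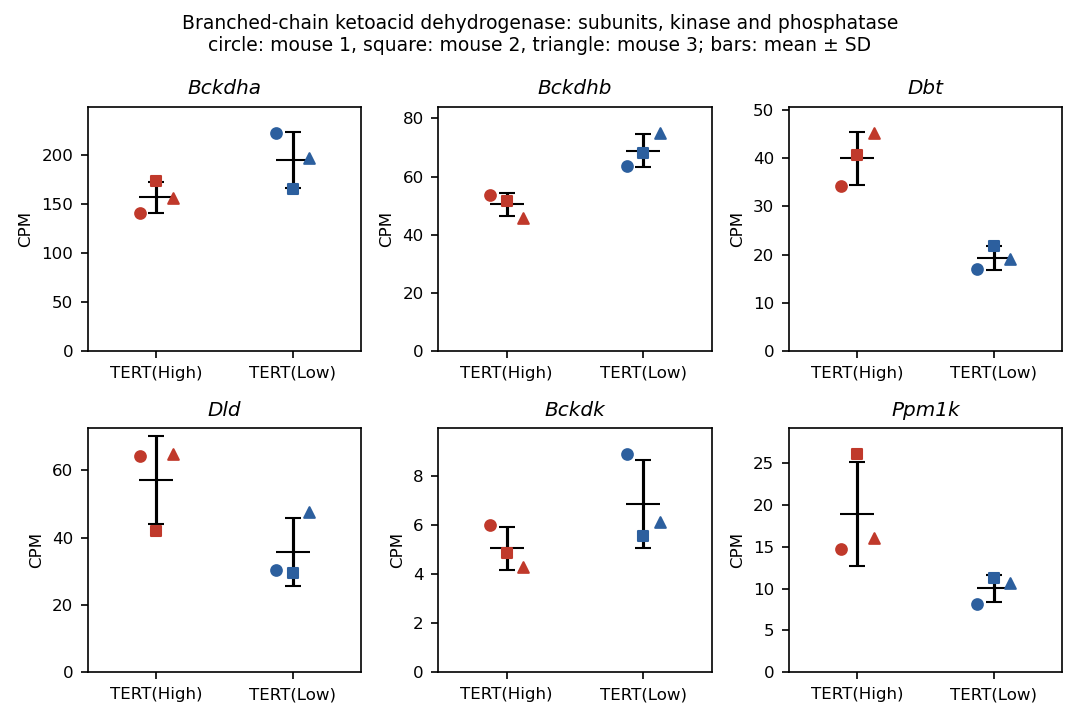
Level in CPM of the subunits of the branched-chain ketoacid dehydrogenase complex and of its kinase and phosphatase in TERT(High) and TERT(Low) libraries, with the mean ± SD of 3 libraries per group. All 3 TERT(High) points of Dbt, at 34.2 to 45.1 CPM, lie above the TERT(Low) points at 17.0 to 21.8 CPM, while those of Bckdhb lie below.

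In the methionine cycle the test called 0 of 6 enzymes. Mat1a, which makes S-adenosylmethionine in the adult liver, had 2137, 3379.7 and 2648 CPM in TERT(High) cells, against 2638, 3359 and 3290.4 CPM in TERT(Low) cells, and the groups overlapped (log2 fold change -0.19, SE 0.22). Gnmt, glycine N-methyltransferase, which uses up excess S-adenosylmethionine, had 578, 1341 and 1130.4 CPM in TERT(High) cells of mice 1, 2 and 3, against 901, 2059 and 1939.7 CPM in TERT(Low) cells. It was lower in the TERT(High) cells of every mouse, with log2 ratios of -0.64, -0.62 and -0.78, although the TERT(Low) library of mouse 1 lay below 2 TERT(High) libraries. The means were 1016 ± 394 CPM in TERT(High) cells, against 1633 ± 637 CPM in TERT(Low) cells (SD, n = 3 each). Its log2 fold change was -0.68 with an SE of 0.42 (edgeR adjusted p = 0.339), and with the mouse as a block -0.68 (SE 0.12, adjusted p = 0.0420), past the threshold. Ahcy, which splits the product S-adenosylhomocysteine, and Cth, cystathionine gamma-lyase, had log2 fold changes of -0.48 and -0.54, and Cbs, which starts transsulfuration, 0.07. Bhmt, which remethylates homocysteine with betaine, had the lowest level in mouse 1 relative to the other mice of all members, at 0.270, and a log2 fold change between the populations of 0.24 (SE 0.68). With the mouse as a block its log2 fold change was 0.17 (SE 0.13).

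With the mouse as a block, edgeR called 4 members, Dbt higher and Oat, Haao and Gnmt lower (8.16%, beside 9.72% of all tested genes). The promoters of the 3 lower genes are shown because that fit called them. Whether these genes share any regulation was not tested. They are the 250 bases before the start in RefSeq's promoter table on GRCm38.p6, all on the minus strand, at chr7:132576399-132576648 for Oat, chr17:83846791-83847040 for Haao and chr17:46729166-46729415 for Gnmt. The RefSeq span of Haao runs on upstream to 83848981, so its window lies inside the gene before an inner start and no window at the outermost start was searched. That of Gnmt runs to 46729211 and overlaps the near end of its window. Capitals mark matches to the CCAAT box on either strand (CCAAT or ATTGG).
Oat: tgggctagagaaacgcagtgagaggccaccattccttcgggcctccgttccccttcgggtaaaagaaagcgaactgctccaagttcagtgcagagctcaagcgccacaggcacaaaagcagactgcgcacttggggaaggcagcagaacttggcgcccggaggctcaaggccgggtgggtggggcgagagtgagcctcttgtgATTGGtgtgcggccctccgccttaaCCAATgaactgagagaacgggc
Haao: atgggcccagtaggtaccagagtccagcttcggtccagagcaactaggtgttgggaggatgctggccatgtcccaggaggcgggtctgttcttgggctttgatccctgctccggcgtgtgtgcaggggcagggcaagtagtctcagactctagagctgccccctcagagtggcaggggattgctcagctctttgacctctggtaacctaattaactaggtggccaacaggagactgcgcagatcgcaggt
Gnmt: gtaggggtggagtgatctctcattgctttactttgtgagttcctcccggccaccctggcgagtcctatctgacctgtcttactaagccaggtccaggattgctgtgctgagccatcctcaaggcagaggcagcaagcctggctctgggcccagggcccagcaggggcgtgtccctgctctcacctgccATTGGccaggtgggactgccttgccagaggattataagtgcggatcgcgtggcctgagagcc
Oat had matches at -47 to -43 and at -22 to -18 from the start, Gnmt had 1 at -62 to -58, and Haao had none in its window. Over RefSeq promoters of this length, 33.9% of 32851 held the CCAAT box, beside 19 of the 41 promoters found for 38 members. The other motifs were searched on both strands, and the counts may include positions that overlap another motif. TATAAA, the TATA box, was in 7 member promoters (12.4% of all), TTGCNNAA, a C/EBP motif, in 4 (9.56% of all), and CAAAGTCCA, an HNF4 motif, in 2 (0.384% of all). The glucocorticoid response element and TGACGTCA, the cyclic AMP response element, were in 0 of the 41, beside 0.387% and 1.55% of all promoters.

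The remaining groups had 0 members past the test. Sardh, sarcosine dehydrogenase, and Dmgdh, dimethylglycine dehydrogenase, take the methyl groups of the choline side chain into folate. Sardh had 474, 1259 and 903 CPM in TERT(High) cells, against 646, 864 and 651 CPM in TERT(Low) cells, with overlapping groups (log2 fold change 0.29, SE 0.35). For Dmgdh the log2 fold change was 0.48 (SE 0.24), and for the serine hydroxymethyltransferases Shmt1 and Shmt2 it was -0.25 and -0.14. In the glycine cleavage system, Gcsh, the lipoyl carrier protein, had 92.5, 88.8 and 94.2 CPM in TERT(High) cells, against 121, 132 and 137 CPM in TERT(Low) cells. Its groups did not overlap and the libraries of each group lay close together (log2 fold change -0.51, SE 0.13, edgeR adjusted p = 0.0557). Gldc, the decarboxylase of that system, had log2 fold change 0.57 with SE 0.62, and Amt, its aminomethyltransferase, -0.49 with SE 0.48.

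Proline, lysine and glyoxylate enzymes closed the list. Prodh, proline dehydrogenase, had 39.0, 160.4 and 112 CPM in TERT(High) cells, against 64.6, 166 and 113 CPM in TERT(Low) cells. Both populations of mouse 1 were low, the groups overlapped, and the log2 fold change was -0.14 (SE 0.55). Prodh2, the hydroxyproline dehydrogenase, had a log2 fold change of -0.46 (SE 0.19). Aass, which starts lysine breakdown, had 116, 242 and 174 CPM in TERT(High) cells, against 87.1, 199 and 141 CPM in TERT(Low) cells. It was higher in the TERT(High) cells of every mouse with overlapping groups (log2 fold change 0.32, SE 0.37). Agxt, the alanine-glyoxylate aminotransferase of peroxisomes, had 115, 155 and 150.2 CPM in TERT(High) cells, against 155, 173 and 194 CPM in TERT(Low) cells, again with overlap (log2 fold change -0.31, SE 0.17). Its mitochondrial relative Agxt2 had a log2 fold change of -0.08.

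**Figure D4:**
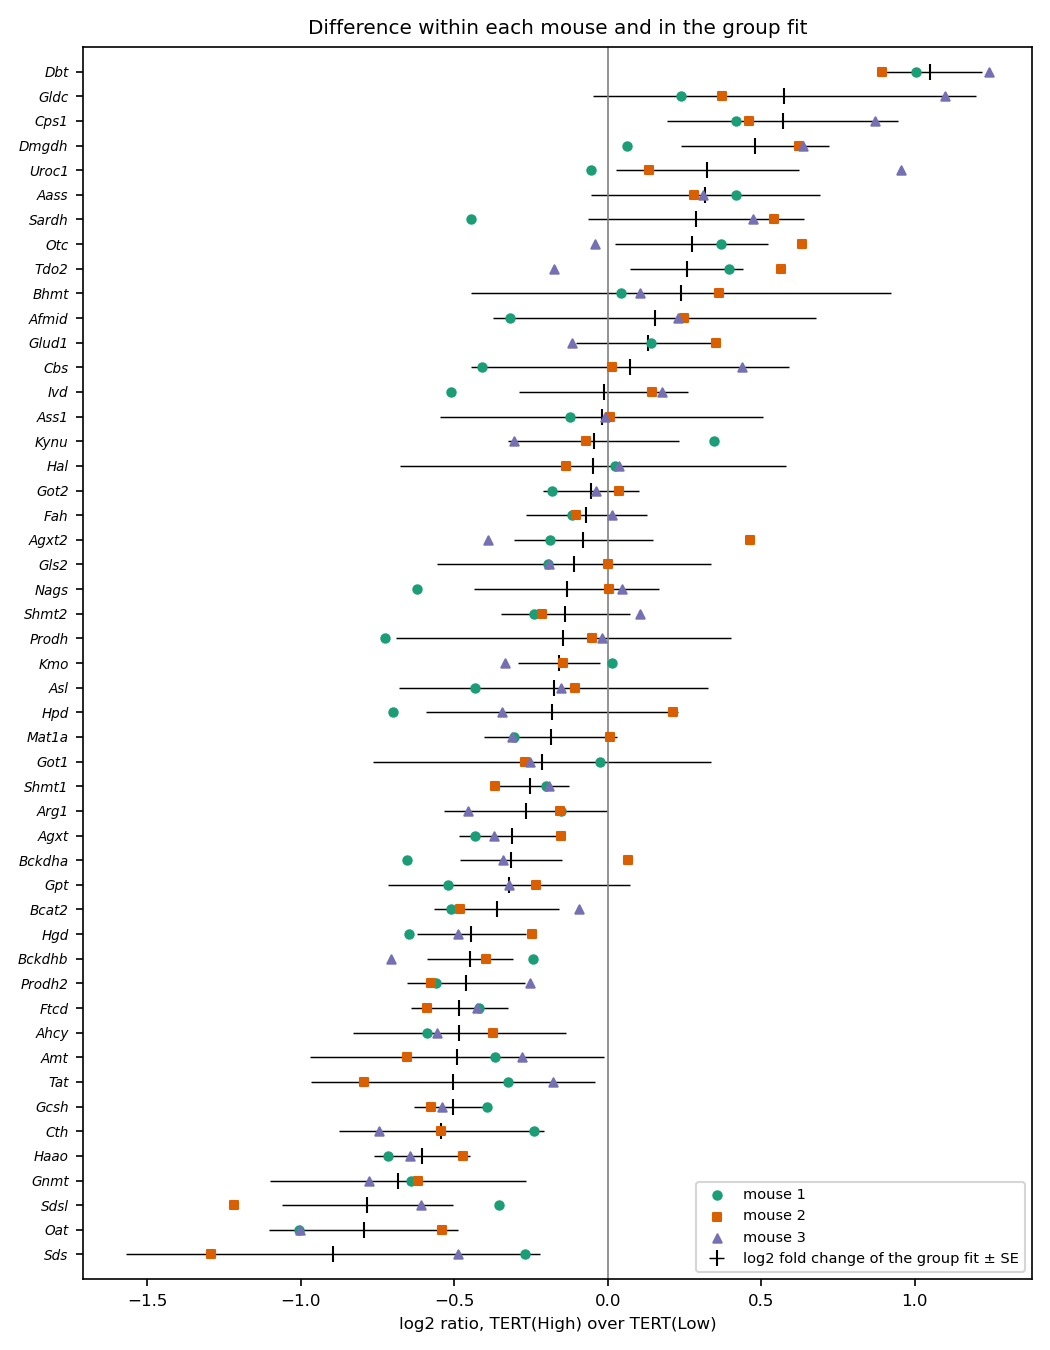
Log2 ratio of TERT(High) over TERT(Low) within each mouse for the 49 enzymes, 1 symbol per mouse, ordered by the log2 fold change of the group fit, which the black tick and line give with its SE. Dbt lies at 0.89 to 1.24 in all mice, and the medians over the 49 are -0.27, -0.10 and -0.19 for mice 1, 2 and 3.

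Within mice, the ratio was above 0 in all 3 mice for 6 members (12.2%, beside 28.2% of all tested genes) and below 0 in all 3 for 22 (44.9%, beside 26.6%). The block gave a smaller typical error, with a median SE of 0.14 over the members beside 0.28 without it. The authors' deposited table, made with DESeq2, called 15 of the 49 members (30.6%, beside 29.2% of its genes with an adjusted p), with Cps1, Dbt and Gldc higher and 12 lower. For Cps1 the authors' deposited table gave a log2 fold change of 0.55 with SE 0.16 (adjusted p = 0.00405). For Ass1 the authors' deposited table gave an SE of 0.15, beside 0.53 in edgeR without the block and 0.12 with it. DESeq2 was rerun on the counts by group, which leaves out the pairing by mouse. It called 6 members (12.2%, beside 24.9% of the 11317 genes with an adjusted p): Dbt higher, and Haao, Gcsh, Ftcd, Bckdhb and Sdsl lower.

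Transcript length moved with the differences. Across the 49 members Spearman's rho between the log2 fold change and transcript length was 0.687, and across the 12546 tested genes with a length it was 0.484. Genes of 1 library set share its libraries and are not independent, so no p is given. The 24 members with longer transcripts, 2319 to 6226 nt, had a median log2 fold change of 0.03, with 12 above 0. The 25 with shorter transcripts, 1035 to 2289 nt, had a median of -0.36, with 24 below 0. Cps1, at 5555 nt, had 0.57 before and 0.04 after removal of the trend with length and GC content, and Gnmt, at 1035 nt, had -0.68 before and -0.21 after. Haao, at 1381 nt, had -0.60 before and -0.20 after (edgeR adjusted p = 0.698). Oat, at 2152 nt, had -0.80 before and -0.74 after. The median over the members was -0.09 after removal, and edgeR called 0 members and 0 of all genes then.

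**Figure D5:**
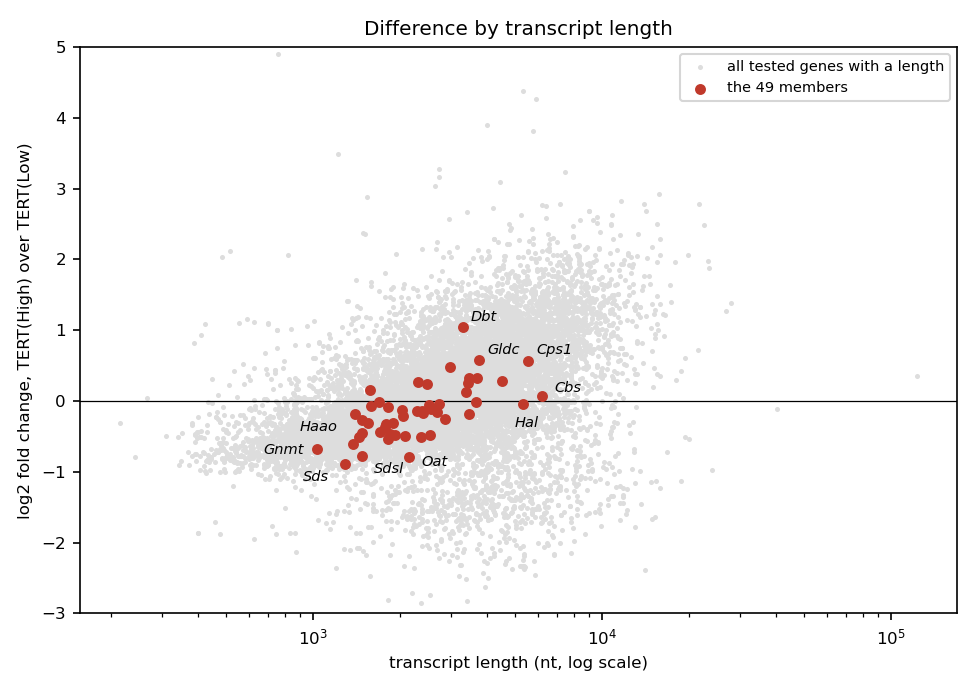
Log2 fold change of TERT(High) over TERT(Low) against transcript length in nt on a log scale, for tested genes with a length (grey) and the 49 enzymes (red). The 25 shorter enzymes have a median of -0.36 and the 24 longer ones a median of 0.03.

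Beyond the 49, a list of 73 other genes of these pathways had 72 tested, of which 0 were higher and 3 were lower in TERT(High) cells. Their median log2 fold change was -0.16, as in the members. The 3 called are 4.17% of the 72, beside 8.14% of all tested genes. With unadjusted p under 0.05 there were 7 higher and 15 lower (30.6%, beside 28.7%), and DESeq2 called 4 higher and 13 lower (23.9% of the 71 with an adjusted p, beside 24.9%), shares near those of all genes. Leaving out 1 library left 0 of the 72 called, other than without the TERT(High) library of mouse 1, where 1 was higher and 2 were lower. Pemt, which makes phosphatidylcholine with methyl groups of S-adenosylmethionine, had 132, 114 and 128 CPM in TERT(High) cells, against 202, 236 and 199.6 CPM in TERT(Low) cells. Its groups did not overlap, and it was lower in TERT(High) cells (log2 fold change -0.77, SE 0.14, edgeR adjusted p = 0.0325). Hsd17b10, a dehydrogenase of isoleucine breakdown, was also lower (log2 fold change -0.73, SE 0.14, adjusted p = 0.0348), as was Tst, the sulfurtransferase rhodanese (log2 fold change -0.77, SE 0.17, adjusted p = 0.0457). After removal of the length and GC trend these log2 fold changes were -0.24 for Pemt, -0.23 for Hsd17b10 and -0.28 for Tst (edgeR adjusted p from 0.612 to 0.680). Glul had log2 fold change -0.54 (SE 0.51, adjusted p = 0.542). The mitochondrial carriers of the urea cycle, Slc25a15 for ornithine and Slc25a13 for aspartate, had log2 fold changes of -0.10 and 0.15. With the mouse as a block, 3 of the 72 were higher (Mut, Ppm1k and Acadsb) and 5 lower, Pemt, Hsd17b10 and Tst among them (11.1%, beside 9.72% of all tested genes).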

How the data were processed

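Per the labels, the cells came from collagenase perfusion and a sort, their RNA from an RNeasy micro kit and the stranded mRNA libraries from a KAPA kit. The submitters' processing notes name TopHat2 2.0.13, Trim Galore 0.4.0, DESeq2 and mm10. How reads were counted (tool, strand setting, annotation) is not given in the sources used here, so reads of overlapping, antisense or closely related genes are uncertain. The deposited table holds raw counts per gene, per the file headers. The authors' deposited table of results holds a signal value (baseMean), log2 fold changes with their standard errors, a test score (stat), p-values and adjusted p-values. There were 0 sample columns without a label.

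The members and lists were chosen with earlier results of these data known. Values per library are given for members past the threshold, the urea cycle, the most abundant member of each role and the 5 largest fold changes, plus members that the mouse block called; other pathway genes are named when past the threshold, with Glul, Slc25a15 and Slc25a13, and Bckdhb, Bckdk, Dld and Ppm1k were added for the Dbt complex after their values were seen. Not every gene named by this rule is reported. edgeR 4.0.16 (R 4.3.3; filterByExpr, TMM, robust quasi-likelihood) fitted the 6 libraries by group, with Benjamini-Hochberg adjustment over 13288 genes; the SE is the absolute log2 fold change over the square root of F. The common biological coefficient of variation was 40.7%, and 29.6% with the mouse block. The labels tie both populations to 1 mouse. As a check, deviations from the group means were compared between both libraries of each mouse. Over all genes their correlation was -0.089, 0.733 and 0.601 for mice 1, 2 and 3, so mouse 1 showed no shared deviation there. Over the members it was 0.813, 0.788 and 0.418. Alternatives changed scaling, filter, tool (DESeq2 1.42.0, limma 3.58.1 voom with sample weights), threshold, libraries, and a trend with transcript length and GC content, removed per library as a spline of 5 degrees of freedom. The DESeq2 and limma-voom fits were by group, without the mouse block. Only the edgeR fit by group was run on simulated counts, which held no mouse effect. Lengths are from GENCODE M21 and coordinates from RefSeq. Figures were drawn with matplotlib 3.10.9 in Python 3.11.15, with numpy 2.4.6 and pandas 2.3.3.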

Additional observations from a re-analysis of the deposited data

How the results depend on the processing

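No called member changed direction under the 21 alternatives. Beside 1 member called, edgeR called 5 at an adjusted p under 0.1, 3 with upper-quartile scaling (1 higher, 2 lower), 2 with a filter of 1 CPM in every library, and 4 with the mouse as a replicate block; DESeq2 called 6 and limma-voom 4. Removing the length and GC trend left 0, also with the block, and leaving out a library or a mouse gave 0 to 1. Beside 3 other pathway genes called, all lower, these settings gave 14, 5, 7, 8, 17 and 13 in the same order. Library totals alone gave 1 higher and 0 lower. Removing the length and GC trend gave 0, also with the block, and leaving out a library or mouse gave 0 to 3. Over all genes edgeR called 1421 higher and 1138 lower at an adjusted p under 0.1, and 1043 and 691 with the stricter filter. The block called 721 higher and 571 lower, DESeq2 1544 and 1278, and limma-voom 1373 and 1104. With the length and GC trend removed, 0 of all genes were called, also with the block. Leaving out a library or mouse also called 0 of all genes, other than without TERT(High) of mouse 1 (937 higher, 713 lower). The members' median of -0.16 was -0.036 with library totals alone, a scaling that moved the median of all genes to 0.14 and their calls to 628 higher and 19 lower (542 and 712 with upper-quartile scaling), -0.064 with the length and GC trend removed and the block, and -0.43 to 0.017 without single libraries or mice. Among 980 single-member values, 14 passed the threshold anew and 10 lost it; the sign differed in 91, in 25 members that were not called. The cause was not tested. Of limits, 3 mice decide every value, 1 mouse sets much of the spread, and at these library totals counting error is small beside it.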

Other observations

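Among 27 regulators of hepatic amino acid catabolism and carriers of amino acids at the plasma membrane, 1 was higher in TERT(High) cells and 0 were lower in edgeR's test (3.70%, beside 8.14% of all tested genes), with 4 higher and 4 lower at unadjusted p under 0.05 (29.6%, beside 28.7%) and 3 higher and 2 lower in DESeq2 (19.2% of the 26 with an adjusted p, beside 24.9%). Nr3c1, the glucocorticoid receptor, had 41.5, 38.2 and 43.5 CPM in TERT(High) cells of mice 1, 2 and 3, against 14.1, 21.9 and 22.9 CPM in TERT(Low) cells. The groups did not overlap (log2 fold change 1.06, SE 0.21, edgeR adjusted p = 0.0366). In each fit without 1 library, other than the TERT(High) library of mouse 1, edgeR called 0 of all genes, Nr3c1 included. With the mouse as a block the log2 fold change of Nr3c1 was 1.09 (edgeR adjusted p = 0.0421), and in DESeq2 it was 1.04 (adjusted p = 0.000391). After removal of the length and GC trend it was 1.04 (edgeR adjusted p = 0.264), in a fit that called 0 of all genes. Gcgr, the glucagon receptor, had 105, 108 and 104 CPM in TERT(High) cells, against 154, 140.4 and 141 CPM in TERT(Low) cells, which also did not overlap but missed the threshold (log2 fold change -0.46, SE 0.12, adjusted p = 0.0649). Hnf4a, a factor that hepatocyte identity rests on, had 312, 667 and 521 CPM in TERT(High) cells and 306, 368 and 434 CPM in TERT(Low) cells, with both libraries of mouse 1 the lowest. Gcgr and Hnf4a, which missed the threshold, were named after their values were seen.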
